A study of Drosophila melanogaster with 8 samples.

Results

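The genes described here encode the proteins of the ribosome, both of the cytoplasmic ribosome and of the separate ribosome inside mitochondria. They were chosen by name: the platform annotation had to give a probe set exactly 1 symbol, starting with RpL or RpS and a digit or P for the cytoplasmic class, or with mRpL or mRpS and a digit for the mitochondrial class. This gave 110 of the 11982 genes measured, with 41 cytoplasmic genes (25 of the large and 16 of the small subunit, by name) and 69 mitochondrial genes (44 and 25). Where a gene had more than 1 probe set, as 6 genes did, the brightest on average was used. Other cytoplasmic ribosomal protein genes were not analysed here, and 5 probe sets that matched several symbols were left out.

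The samples were whole Drosophila melanogaster animals collected as white prepupae, at 0 hours after puparium formation, with RNA taken from 1 animal per array. Wild type animals were of the strain w1118, a white-eyed laboratory stock, and the mutants were bap170;bap180 double mutants, bap180 now being named polybromo. Both genes encode subunits found only in PBAP, one of the forms in which the Brahma chromatin remodelling complex occurs. There were 2 females and 2 males of each genotype, so 8 arrays in 4 groups. The sources used here do not give the alleles, nor whether mutants and wild type share a genetic background.

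The cytoplasmic ribosome makes nearly all proteins of a cell from nuclear transcripts, and its proteins are encoded by nuclear genes that are transcribed at very high levels in growing tissue. The mitochondrial ribosome is built from a different set of nuclear-encoded proteins and translates the few mRNAs of the mitochondrial genome, which encode subunits of oxidative phosphorylation. In flies several cytoplasmic ribosomal proteins are encoded by a pair of gene copies, of which one is used broadly and the other is known mostly from the germ line, among them RpL22-like in the male germ line, RpS19b in the gonads and RpS5b in the ovary. The comparisons asked whether ribosomal protein transcripts differed between genotypes or sexes, and whether both classes did so alike.

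As a check of the genotype labels, the 2 mutated genes had lower signal in mutants, Bap170 by a difference of -1.32 ± 0.12 (log2 difference, SE, limma adjusted p = 0.00264) and polybromo at -1.63 ± 0.12 (limma adjusted p = 0.00121), with no overlap of the genotypes for either gene. Signal is given as log2 of the deposited intensity, in which 1 unit is a doubling. Array medians lay at 4.80 to 4.87 in females and 5.05 to 5.13 in males. The 90th percentile was 9.22 on the array of wild type male 1 and 9.25 on that of double mutant female 1, and 9.35 to 9.41 on the others. The values carry no detection calls, background makes up most of a signal near the array median and shrinks differences there, and levels of different genes are not compared.

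The 2 classes sat in different ranges of signal. Among the 41 cytoplasmic genes, 29 had a mean above 12, at 12.9 to 13.9, close to the array maxima of 14.30 to 14.48, where differences can be compressed. Only 256 of 18769 probe sets (1.36%) had a mean that high. The 69 mitochondrial genes had means of 6.74 to 9.86, the middle of the range. The other 12 cytoplasmic genes ran from 4.73 for RpS28-like to 11.37 for RpL34a, and all 12 are on the list of duplicated genes, which holds genes named as "like" another.

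Sex set apart a small group of cytoplasmic genes. A gene was called when its limma p, adjusted by Benjamini-Hochberg over all 18769 probe sets, was under 0.05. By this rule 7 of 41 cytoplasmic genes were higher in males (3 of the large and 4 of the small subunit) and 0 were lower, and 0 of 69 mitochondrial genes were called in either direction. Of all probe sets 8.09% were called higher in males and 2.0% lower. Of the 4753 probe sets in the range of mean signal of the mitochondrial genes, 155 were called higher and 104 lower. The same 7 genes were those of the cytoplasmic class whose 4 male arrays all lay above the 4 female arrays, which held for 8.87% of all probe sets. All 7 belong to the list of duplicated cytoplasmic genes, of which 16 of 28 were measured and 9 were not called. That list was chosen with earlier results of these data known, so the overlap is a description.

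RpL10Aa, a copy of the gene for the large subunit protein L10A, showed the largest difference. Its signal was 4.31 and 4.62 in wild type females, 7.85 and 8.02 in wild type males, 4.53 and 4.14 in mutant females, and 7.68 and 6.70 in mutant males. Every male stood above every female by at least 2 log2 units, and all 4 female values lay below the median of their array. The difference was 3.16 ± 0.23 (log2, male minus female, SE, limma adjusted p = 0.000107), an 8.95-fold ratio, with 3.47 in wild type and 2.86 in mutants (SE 0.32 each).

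RpS19b, a copy of the gene for small subunit protein S19, read 4.88 and 5.06 in wild type females, 7.33 and 8.26 in wild type males, 4.70 and 4.69 in mutant females, and 7.86 and 7.22 in mutant males. The sexes did not overlap, and the males differed among themselves by about 1 unit while the females stayed close together. Of the 4 female values 2 lay below the median of their array. The difference was 2.84 ± 0.23 (limma adjusted p = 0.000196), 2.83 in wild type and 2.85 in mutants.

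RpL22-like, the copy of large subunit gene RpL22 known from the male germ line, read 5.19 and 5.08 in wild type females, 6.93 and 7.53 in wild type males, 5.15 and 5.03 in mutant females, and 7.27 and 7.10 in mutant males. The female values spanned a narrow band and all male values lay well above it. Its difference of 2.09 ± 0.15 (limma adjusted p = 0.000103) was 2.09 in each genotype.

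RpS5b, the copy of RpS5a known from the ovary, was also higher in males. Females read 6.14 and 6.46 in wild type and 6.28 and 6.34 in mutants, and males 7.69, 8.41, 8.37 and 8.26 in the same order. The sexes were separate although the females were above the array median, and the difference was 1.88 ± 0.17 (limma adjusted p = 0.000349).

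RpS10a, a copy of the gene for small subunit protein S10, read 4.66 and 4.51 in wild type females, 4.54 and 4.69 in mutant females, 5.69 and 6.37 in wild type males, and 6.75 and 6.48 in mutant males. All 4 female values lay below the median of their array, and both mutant males stood above both wild type males. The sex difference was 1.72 ± 0.17 (limma adjusted p = 0.000454), 1.44 in wild type and 2.0 in mutants. The test of whether these 2 differ gave 0.55 ± 0.33 (limma adjusted p = 0.772).

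RpL37-2, one of the genes for large subunit protein L37, went the other way between genotypes. Its females read 5.09 and 5.26 in wild type and 5.30 and 4.88 in mutants, while wild type males read 6.91 and 7.82 and mutant males 6.24 and 6.37. Both mutant males lay below both wild type males and above all females. The sex difference was 1.70 ± 0.21 (limma adjusted p = 0.00165), 2.19 in wild type and 1.21 in mutants, and the test of whether these 2 differ gave -0.98 ± 0.42 (limma adjusted p = 0.766).

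RpS28-like, related to the genes for small subunit protein S28, read low on all arrays. Females read 4.12, 4.24, 4.09 and 4.06, all below their array medians, and males 5.65 and 5.32 in wild type and 5.40 and 4.94 in mutants. The lowest male value also lay below the median of its own array. The difference was 1.20 ± 0.14 (limma adjusted p = 0.00108), a 2.29-fold ratio, and signal this low compresses its size.

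**Figure D1:**
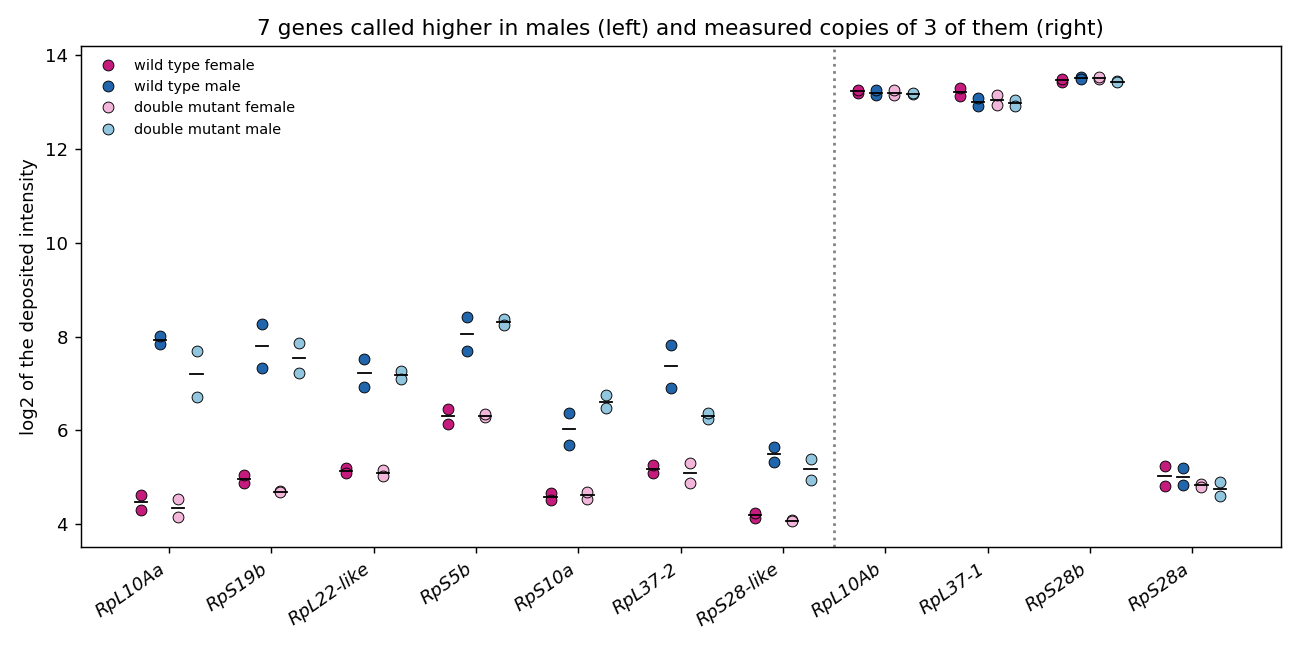
Log2 of the deposited intensity on each of 8 arrays (points, 2 per group; short lines are group means) for the 7 genes called higher in males and, right of the dotted line, for measured copies of 3 of them. Male points lie above all female points for the 7 genes, while RpL10Ab, RpL37-1, RpS28b and RpS28a show no such separation.

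None of the measured copies of these genes was called. When each array was centred on its median, RpL10Ab, RpL37-1 and RpS28b were among 21 of 41 cytoplasmic genes called lower in males. That setting called 11078 of all 18769 probe sets lower, so these calls do not set the copies apart. RpL10Ab, the broadly used partner of RpL10Aa, read 13.15 to 13.25 in males and 13.15 to 13.26 in females, a difference of -0.02 ± 0.09 (limma adjusted p = 0.875). RpL37-1 differed by -0.14 ± 0.11 (limma adjusted p = 0.429) and RpS28b by -0.01 ± 0.08 (limma adjusted p = 0.933). RpS28a read 4.59 to 5.25, near the array medians, and differed by -0.05 ± 0.15 (limma adjusted p = 0.826).

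The log2 ratio of 2 copies within each animal carries the same arrays and is given as a description. That of RpL10Aa to RpL10Ab was higher in males than in females by 3.19, that of RpS28-like to RpS28b by 1.21 and to RpS28a by 1.25. The ratio of RpL37-2 to RpL37-1, a copy added to the list after the calls were seen, was higher by 1.84. These 4 differences hold a gene already called for sex and so restate its call, and RpL10Ab, RpL37-1 and RpS28b are bright enough that their own differences can be compressed. For the pairs without a called gene, the ratio of RpS28a to RpS28b differed by -0.04 and that of RpLP0-like to RpLP0 by -0.07, with males and females overlapping. The partners of RpS19b, RpL22-like, RpS5b and RpS10a were not analysed here.

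Several of the uncalled duplicated genes have a different role. RpL24-like, RpL7-like and RpLP0-like are related to yeast proteins that act in assembling the large subunit rather than in the finished ribosome. They differed between the sexes by 0.11 ± 0.15, 0.08 ± 0.13 and -0.16 ± 0.22 (log2, male minus female), with males and females overlapping for each. RpL34a, of the large subunit, differed by 0.12 ± 0.16, and the stalk protein gene RpLP0 by -0.08. RpL37A encodes a protein distinct from L37 despite its name, and differed by -0.10.

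The 34 cytoplasmic genes that were not called lay between -0.16 and 0.12 for sex, with a lowest limma adjusted p of 0.429. The 29 bright ones lay between -0.14 and 0.05. Their median standard deviation between replicates was 0.06 (log2), against 0.18 over all probe sets, in a range of signal where spread is compressed too.

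**Figure D2:**
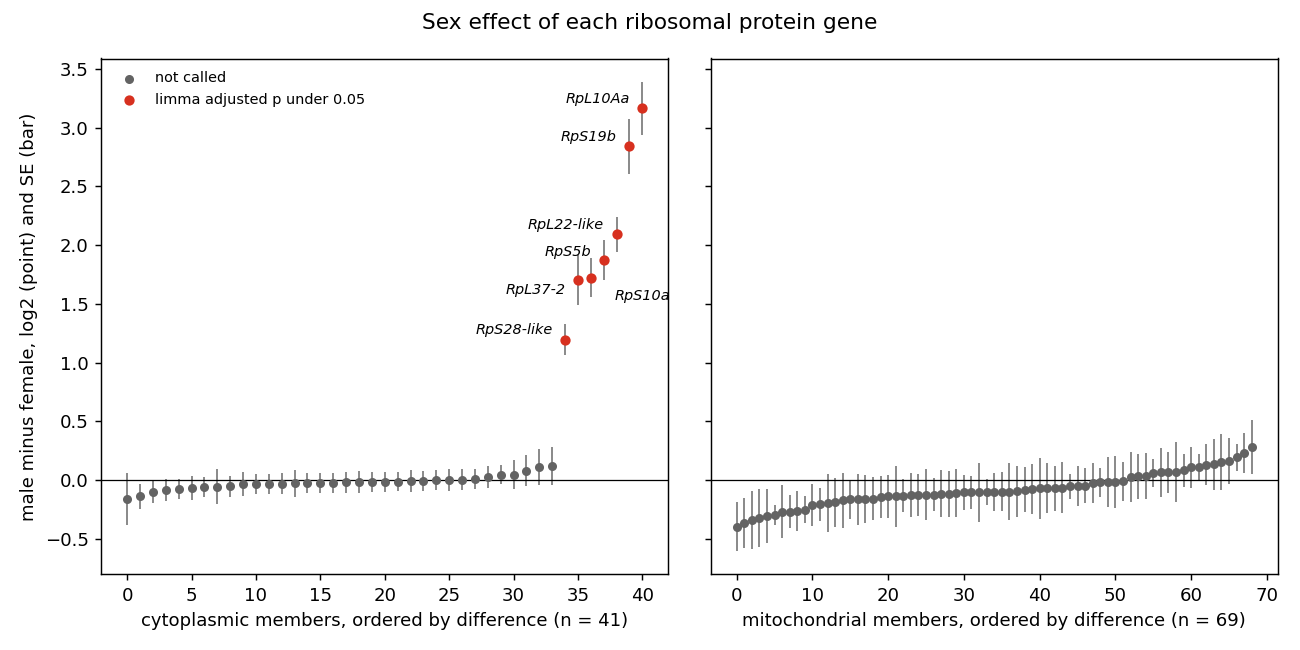
Male minus female difference (log2, points) with its SE (bars) for each of 41 cytoplasmic (left) and 69 mitochondrial genes (right), in order of size. The 7 called genes, at 1.20 to 3.16, stand apart from all others, which lie between -0.39 and 0.28.

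Testis genes differed in the same direction on the same arrays. Of 16 measured genes of the list for testis and spermatocytes, 13 were called higher in males, among them betaTub85D, the testis-specific beta-tubulin, by 5.69 (log2). Their summed intensity was 434 to 555 in females, 5633 and 4861 in wild type males and 3879 and 2827 in mutant males. Of the 16 genes, 13 to 14 lay below the array median in each female. The median of the list ordered the males differently, at 5.25 and 6.08 (log2) in wild type and 5.70 and 5.20 in mutants, against 4.20 to 4.38 in females. Mutant male 2, lowest of the males by sum and by median, held the lowest male value of RpL10Aa, RpS19b and RpS28-like. Wild type male 1, highest by sum but close to the lowest by median, held the lowest of RpL22-like, RpS5b and RpS10a. It held the highest male value of RpS28-like, and mutant male 1 held the lowest of RpL37-2. The array of wild type male 1 was also the lowest of all arrays for 23.1% of all probe sets.

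Genes of the early germ line moved less. Of 7 measured, bgcn (1.35) and aub (0.52) were called higher in males, and vas (-0.03) and zpg (0.00), dim on all arrays, were not called. For genotype 1 was called, bam, which was higher in mutants by 0.56, where 1.32% of all probe sets were called higher. On the arrays of wild type female 1 and both mutant females all 7 genes, bam among them, lay below the array median. The summed intensity of the list was 117 to 137 in females and 164 to 180 in males. Of 4 female germ line genes 0 were called, and osk, otu and orb were below the array median in all animals. In whole animals, fewer cells of a type and less RNA per cell cannot be told apart, and the part of testis tissue in the 7 differences was not tested.

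No mitochondrial gene was called between the sexes, and the class median depended on single animals. That median difference was -0.10 (log2, male minus female; range -0.39 to 0.28), with 52 of 69 genes below 0. The median of all probe sets was -0.13, with 75.3% below 0, and that of the 4753 probe sets in the same range of mean signal was -0.10, with 70.8% below 0. The mitochondrial median was 0.08 without wild type male 1 and -0.27 without wild type male 2, while that of all probe sets was -0.13 in either case. The cytoplasmic median was -0.02. When each array was centred on its median instead, the median of all probe sets moved to -0.40 and 11078 probe sets were called lower against 1444 higher. The classes then had 21 and 11 genes called lower. Centring shifts all probe sets of an array alike, so the distance of a class to all probe sets cannot change with it, and was 0.12 for the cytoplasmic and 0.03 for the mitochondrial median. Quantile normalization gave 1586 probe sets higher and 1890 lower, with the cytoplasmic and mitochondrial medians at -0.01 and -0.11.

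Among mitochondrial genes, the lowest limma adjusted p for sex was 0.0849, for mRpS30, whose product sits in the large subunit of the mammalian mitochondrial ribosome despite its name. Its females read 8.32, 8.28, 8.06 and 8.17, and its males 7.76 and 7.87 in wild type and 8.01 and 8.0 in mutants. All males lay below all females, by the least between mutant males and mutant females, and the difference was -0.30 ± 0.09. The same order held for mRpL45 (-0.25, limma adjusted p = 0.228), whose mammalian counterpart helps to hold the ribosome at the inner membrane. Male arrays lay below female arrays for these 2 of 69 mitochondrial genes and for 0 cytoplasmic genes, against 9.50% of all probe sets. In the mitochondrial range of mean signal this held for 165 of 4753 probe sets, a share near that of the mitochondrial genes. The ends of the range were mRpL33 at -0.39 (limma adjusted p = 0.277) and mRpL15 at 0.28 (limma adjusted p = 0.461), both of the large subunit.

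Between genotypes no ribosomal protein gene was called. In the double mutants 0 of 41 cytoplasmic and 0 of 69 mitochondrial genes were higher, and 0 and 0 were lower, where 1.32% of all probe sets were called higher and 1.47% lower. At an unadjusted p under 0.05 the counts were 1 of 41 and 7 of 69, against 2495 of 18769 probe sets and 1111 of the 4753 in the mitochondrial range of mean signal, so both shares were below the background. The median difference, mutant minus wild type, was -0.02 for the cytoplasmic class, -0.09 for the mitochondrial class and -0.01 for all probe sets. The mitochondrial median was -0.27 without wild type male 1 and 0.06 without wild type male 2. Of the cytoplasmic genes 30 of 41 were below 0, of the mitochondrial genes 46 of 69, and of all probe sets 53.7%.

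The cytoplasmic differences were small for all genes outside the male-biased group. The 29 bright genes lay between -0.14 and 0.13, and the 34 genes not called for sex between -0.23 and 0.13. RpL37-2 stood lowest at -0.57 ± 0.21 (limma adjusted p = 0.293) and RpL10Aa followed at -0.44 ± 0.23 (limma adjusted p = 0.512). Among females RpL10Aa differed by -0.13 and among males by -0.74. RpS10a stood highest at 0.31 (limma adjusted p = 0.53). For RpL10Aa the genotypes overlapped in females and the mutant male values of 7.68 and 6.70 lay below the wild type male values of 7.85 and 8.02. The summed intensity of the testis list was lower in the same 2 males, but its median was not lower in both, and 0 of its genes were called for genotype.

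One cytoplasmic gene had all mutant arrays below all wild type arrays, RpLP2, a protein of the ribosomal stalk, at 13.41 to 13.51 in wild type and 13.31 to 13.40 in mutants. Of mitochondrial genes, mRpS16, mRpS17 and mRpS33 had the mutants below and mRpL48 had them above. Over all probe sets 2.98% had all mutant arrays below and 3.36% above, which is near the 4 of 110 members below and more than the 1 of 110 above. Of these 5 genes, RpLP2 and mRpS33 were chosen after their values were seen.

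The mitochondrial gene nearest the threshold was mRpS16, of the small subunit and with a counterpart in bacterial ribosomes. It read 8.70 and 8.80 in wild type females, 8.56 and 8.87 in wild type males, 8.19 and 8.29 in mutant females, and 8.14 and 8.19 in mutant males. The genotypes were separate in both sexes. The difference was -0.53 ± 0.10 (limma adjusted p = 0.0501), and it passed the threshold after quantile normalization (limma adjusted p = 0.0209) and in 5 other settings.

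For mRpS17, also of the small subunit with a bacterial counterpart, wild type values were 7.90, 8.03, 7.95 and 8.24 and mutant values 7.29, 7.52, 7.77 and 7.56, females first. All mutants lay below all wild type animals, with mutant male 1 nearest to them. The difference was -0.49 ± 0.12 (limma adjusted p = 0.092), and 0.0222 after quantile normalization. The small subunit gene mRpS33 differed by -0.50 (limma adjusted p = 0.324).

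The large subunit gene mRpL48 stood at the other end, with 0.68 ± 0.25 (limma adjusted p = 0.284). Wild type females read 7.35 and 7.32, wild type males 6.19 and 7.42, and mutants 7.67 to 7.89. Wild type male 1 was over 1 unit below the other wild type animals. The difference was 0.38 without that array, and 0.99 (limma adjusted p = 0.00892) without wild type male 2, the lone remaining wild type male then being assumed to vary like the other groups.

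The 3 related small subunit genes mRpS18A, mRpS18B and mRpS18C, of which flies and mammals keep several versions, gave 0.17, -0.22 and -0.28 for genotype and 0.13, 0.16 and 0.12 for sex. None was called, and the lowest limma adjusted p among them was 0.333.

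**Figure D3:**
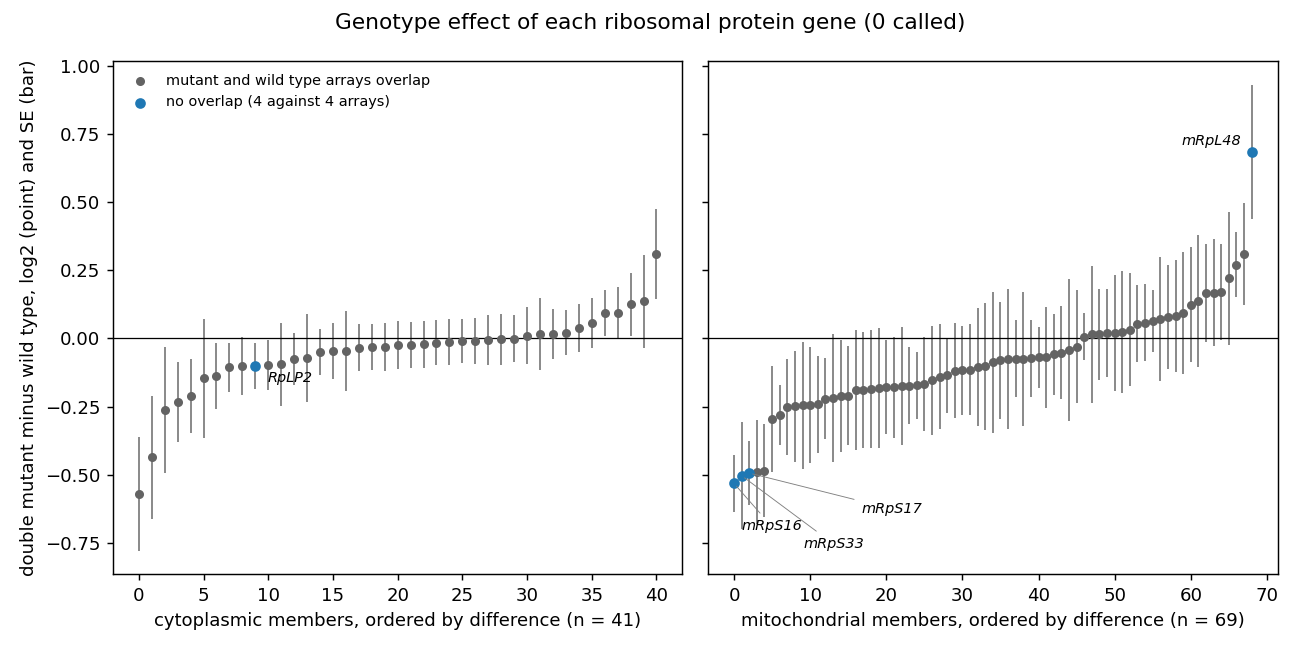
Double mutant minus wild type difference (log2, points) with its SE (bars) for each of 41 cytoplasmic (left) and 69 mitochondrial genes (right), in order of size. None was called. The 5 genes whose mutant and wild type arrays do not overlap are in blue, from mRpS16 at -0.53 to mRpL48 at 0.68.

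The mitochondrial genes moved together from animal to animal, apart from the groups. Measured against each gene's mean over the 8 arrays, the class median was -0.39 in wild type male 1 and 0.29 in wild type male 2, animals of one group. It was -0.26 and 0.12 in the mutant females, 0.07 and 0.25 in the wild type females, and 0.07 and -0.11 in the mutant males. Wild type male 1 lay below the gene's mean for 66 of 69 genes and was the lowest array for 47 (68.1%), against 44.1% of the 4753 probe sets in the same range of mean signal and 23.1% of all probe sets. The median of the 29 bright cytoplasmic genes lay between -0.05 and 0.05 on every array, with single genes further out.

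**Figure D4:**
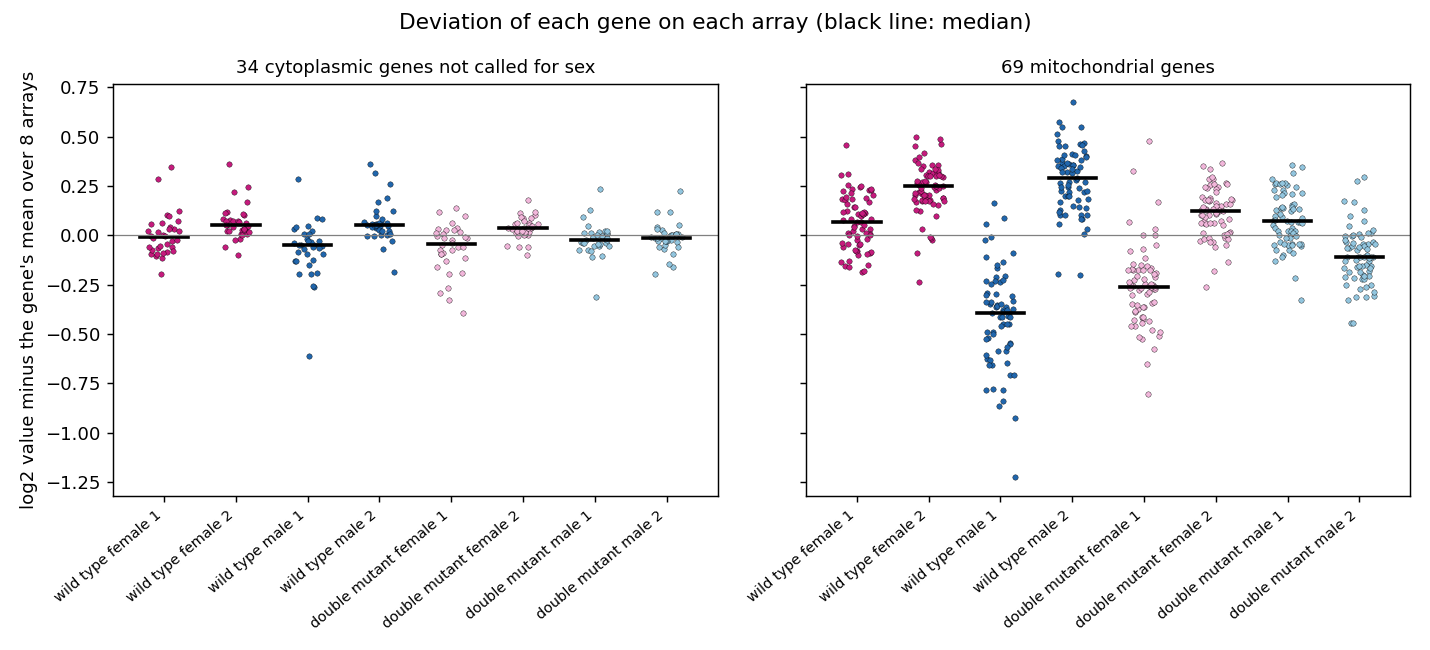
Deviation of each gene from its own mean over 8 arrays (log2, points) on each array, for 34 cytoplasmic genes not called for sex (left) and 69 mitochondrial genes (right), with black lines at the medians. The mitochondrial medians run from -0.39 in wild type male 1 to 0.29 in wild type male 2, and the cytoplasmic medians from -0.05 to 0.05.

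This spread set the errors of the class. The median standard deviation between replicates was 0.32 (log2) for mitochondrial genes and 0.08 for cytoplasmic ones, most of them bright. It was 0.24 for the 4753 probe sets in the mitochondrial range of mean signal and 0.18 over all probe sets. Over the 8 arrays the median correlation between 2 mitochondrial genes was r = 0.78 (2346 pairs) and that between 2 bright cytoplasmic genes 0.35, values that share the arrays and their scaling. The correlation among other probe sets of the mitochondrial signal range was not computed, so 0.78 is not shown to be particular to the class. The large and small subunits of the mitochondrial ribosome had class medians of -0.39 and -0.38 in wild type male 1.

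Probe sets of the same signal range moved on the same arrays. The median over all 4753 of them was -0.27 in wild type male 1 and -0.13 in double mutant female 1, the arrays whose 90th percentile was also lowest, and -0.01 in wild type male 2. After quantile normalization the mitochondrial median was -0.20 in wild type male 1, 0.23 in wild type male 2 and -0.09 in double mutant female 1, so the gap between the wild type males was reduced and still there. How much of it belongs to the animals and how much to the arrays was not tested.

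**Figure D5:**
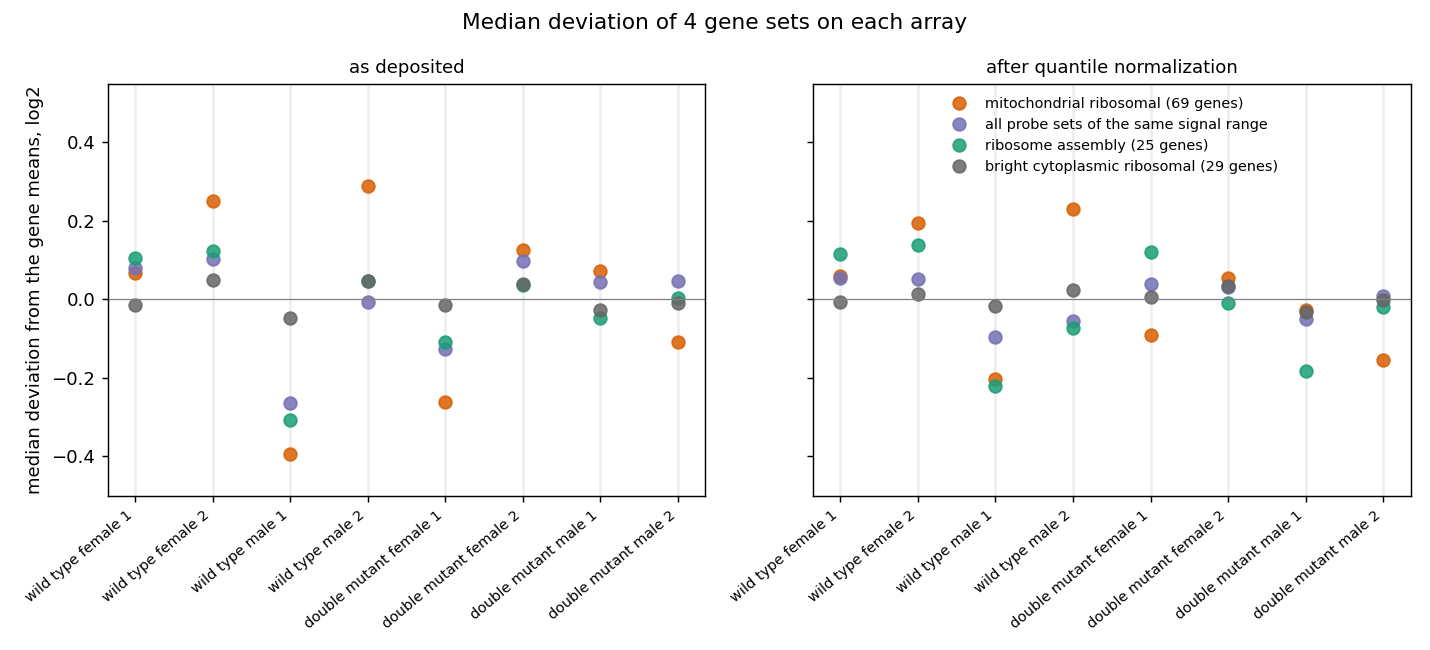
Median deviation from the gene means (log2) on each array for mitochondrial ribosomal protein genes, all probe sets in their range of signal, ribosome assembly genes and bright cytoplasmic ribosomal protein genes, as deposited (left) and after quantile normalization (right). Wild type male 1 is lowest for the mitochondrial genes in both panels, at -0.39 and -0.20.

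The genotype difference was compared between the sexes by the interaction, the difference in males minus that in females. No member was called, nor was any probe set (0% of 18769, with 1184 at an unadjusted p under 0.05, 0 of them ribosomal protein genes). The median was 0.26 for the mitochondrial class, with 64 of 69 genes above 0, 0.02 for the cytoplasmic class and 0.04 for all probe sets. Probe sets of the mitochondrial signal range had a median of 0.27. The mitochondrial median was -0.11 without wild type male 1 and 0.62 without wild type male 2, and 0.04 after quantile normalization, so its sign rested on 1 animal. The gene mRpL3, of the large subunit, had the highest value at 0.90, and mRpS30 the lowest p in the class, at 0.38 (limma adjusted p = 0.766).

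Genes that build ribosomes or work with them gave few calls. Of 28 genes for ribosome assembly and rRNA synthesis 25 were measured, and 0 were called for genotype or sex, with medians of -0.04 and -0.10. Non1, a nucleolar GTPase, stood nearest at 0.45 ± 0.09 for genotype (limma adjusted p = 0.0616). The nucleolar helicase gene pit gave 0.30 for genotype and -0.34 for sex, and NHP2, a protein of the particles that modify rRNA, -0.27 for genotype. On the array of wild type male 1 the list's median deviation was -0.31.

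Of 34 cytoplasmic translation factor genes 27 were measured and 0 were called, with medians of 0.06 for genotype and 0.06 for sex. The initiation factor gene eIF3a gave 0.33 for genotype (limma adjusted p = 0.407), and the elongation factor gene eEF1alpha2 0.23 for sex (limma adjusted p = 0.201). Of 10 mitochondrial translation factor genes 9 were measured. Of these mEFTs, the exchange factor of the mitochondrial elongation factor Tu, was called higher in males, at 8.03 to 8.40 in males and 7.11 to 7.58 in females, by 0.80 ± 0.11 (limma adjusted p = 0.00362). The sexes did not overlap for mEFTs. Of all probe sets 8.09% were called higher in males, and 8.87% had all male arrays above all female arrays. A single call among 9 genes is near these shares and does not set the factors apart from the mitochondrial ribosome. No gene of these factors was called for genotype.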

How the data were processed

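Per the labels' protocols, RNA of each animal was turned into biotinylated cRNA for an Affymetrix array. The deposited values are intensities on a linear scale, made by the authors with RMA per the submitters' processing notes, with the software, genome build and any later scaling not given in the sources used here. They were taken to log2. Of 18952 probe sets 183 controls were left out, and 18769 were fitted with limma 3.58.1 in R 4.3.3 (lmFit and eBayes on 4 group means, 4 residual degrees of freedom), with Benjamini-Hochberg adjustment over all of them. The fit was tested on simulated data. Effects are means of the differences within both sexes or both genotypes. Errors are SE, with 4 arrays per genotype or sex and 2 per group, whose number limits the precision. Symbols came from the platform annotation and 0 of the 110 changed against the Release 6 gene table. No batch is given in the labels.

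Named genes are the duplicated genes, the genes of lowest p or at either end of the range per class, and up to 4 of lowest p per further list, with Bap170 and polybromo. The members and lists were chosen with earlier results of these data known.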

Additional observations from a re-analysis of the deposited data

How the results depend on the processing

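In each of 20 other settings the 7 male-biased genes that were tested kept their call, with RpL10Aa between 2.90 and 3.41 (log2). The filter at log2 of 6 removed RpS28-like and left 6. Median centring moved the cytoplasmic sex median to -0.28. It called 21 of 41 cytoplasmic and 11 of 69 mitochondrial genes lower in males, against 11078 of all 18769 probe sets. Mitochondrial genes lower in the mutants, 0 as reported, numbered 2 after quantile normalization, 1 with the mean of a gene's probe sets, 1 with array weights, 1 in the additive model, and 3 with crossed replicate numbers as a block, a setting chosen after seeing the data. In the same order, 322, 261, 271, 268 and 412 of all features were called lower. The features numbered 18769, or 17104 with the mean of a gene's probe sets. Leaving out each array gave 0 to 1 mitochondrial genes lower (1 without wild type male 1, mRpS16), 0 to 1 higher (1 without wild type male 2, mRpL48) and 0 to 1 lower in males (1 without wild type male 2). It moved the interaction median from -0.066 to 0.072 for the cytoplasmic class and from -0.11 to 0.62 for the mitochondrial class. Without single arrays the mitochondrial median ran from -0.27 to 0.06 for genotype and from -0.27 to 0.08 for sex, both ends without 1 of the wild type males. The cause was not tested. The replicate number as a block gave 7 cytoplasmic genes higher in males and changed no call of a member. The deviations of same-numbered animals correlated at 0.18 to 0.41 among wild type females, wild type males and mutant females. Between these groups and mutant males they correlated at -0.30 to -0.18. The numbers as given therefore do not pair all groups alike, and whether some arrays were processed together was not tested. Among single named genes 1595 values kept their side of the threshold, 25 passed it, and 0 calls reversed. Differences that were not called could change sign between settings, as that of RpL22-like for genotype did, from -0.20 to 0.11. Of the members 39 of 41 and 69 of 69 passed the filter at log2 of 6. Signal near the array median limits the dim genes, and signal near the maxima the bright ones.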
